A study of Danio rerio with 7 samples.

Results

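The genes described here code for the nuclear-encoded subunits of mitochondrial respiratory complex I, measured in sorted ventricular cells of the injured adult zebrafish heart. Membership followed a rule on symbols, chosen with earlier results of these data known. The rule takes each gene whose symbol begins, ignoring case, with ndufa, ndufb, ndufc, ndufs or ndufv, except the ndufaf assembly factors. The name table held 42 such symbols, and 37 of them had a row among the 16394 genes of the joined data. A row for every plate was found for 36 of the 37. The exception, ndufa9b, had 2 transcripts in all, both in mutant replicate 1, and was not tested. NDUFA4, NDUFA4L2, ndufa4l2b, ndufc1 and ndufc2 were not analysed here. A further listed subunit, ndufa13, was not among the 42 symbols and is in none of the sums. The other 36 members passed the filter on low counts, from ndufv3 with 76 transcripts up to ndufa4b with 7643. Symbols are spelled as in the name table, which often uses the human form.

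Cells came from the ventricles of adult Tg(nppa:mCitrine) fish, 7 days after cryoinjury, and 1 cell was sorted into each well of a 384-well plate. The groups were 4 plates of hmga1a-/- fish (mutant) and 3 plates of hmga1a+/+ fish (wild type), with 12 hearts per genotype, and both carried the reporter and the injury. The reporter uses the nppa promoter (nppa codes for a natriuretic peptide), and the hmga1a product is a high mobility group protein that binds chromatin. The labels name mCitrine in one place and mCherry in another as the sorted colour, do not say which part of hmga1a is changed, and tie no plate to particular hearts, so every p-value rests on differences among plates that may be technical only. Flow cell run 2 held mutant replicates 3 and 4 and wild-type replicates 2 and 3. Run 1 held mutant replicates 1 and 2 and wild-type replicate 1.

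Complex I passes electrons from NADH to ubiquinone and pumps protons across the inner mitochondrial membrane. In mammals its N module binds NADH, its Q module reduces quinone, and both stand on a membrane arm with a proximal and a distal part. Core subunits carry out the reaction and are shared with bacteria, and those of the membrane arm are encoded by mitochondrial DNA. The accessory subunits surround the core and are all nuclear-encoded. Cardiac muscle is rich in mitochondria and relies on this chain for much of its ATP. Each zebrafish gene was assigned to a single group after its mammalian protein, even where that protein may sit in more than one part. NDUFAB1 and ndufab1b were both placed in the distal arm. Each role given below is that known for the mammalian protein.

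Of 2688 wells, 1033 held at least 1000 transcripts outside spike-ins and mitochondrially encoded genes and were kept. Plate totals over kept wells ranged from 276945 to 542532 transcripts in mutant plates and from 260496 to 753855 in wild-type plates. Cardiomyocyte markers, 9 of 10 listed symbols matched, summed to 1200 to 1576 per 10000 transcripts in mutant plates and 1531 to 1854 in wild-type plates. MYL7 made up the largest part of that sum in every plate. As a share of the same transcripts, MYL7 was lower in every mutant plate than in any wild-type plate. The markers did not all go that way: tnnc1a and MYBPC3 were higher in every mutant plate, and the other matched rows overlapped. None of the matched cardiomyocyte symbols was at 0 in a plate; a second gene row under TNNI1 was at 0 in every mutant plate and had at most 1 transcript in a wild-type plate. The macrophage and leukocyte list, 6 of 9 symbols matched, was low except in mutant replicate 1, with 14.1 per 10000 there, 0 to 0.0822 in the other mutant plates and 0.935 to 1.19 in wild-type plates. In mutant replicate 1 cd74a, an antigen-presentation gene, made up 573.4 transcripts of that sum, and ptprc, which marks leukocytes, was at 0 in mutant replicates 2, 3 and 4. Markers of fibroblasts and epicardium (5 of 8 matched), endothelium (3 of 6) and thrombocytes (4 of 4) stayed at or below 1.03 per 10000 in every plate, and no erythrocyte symbol of 5 was matched. The hmga1a transcript (ENSDARG00000028335) stood at 51.7, 50.8, 10.2 and 36.3 CPM (counts scaled to equal library totals) in the mutant plates, against 111.7, 125.4 and 105.4 CPM in the wild-type plates. The mutant plates lay below all wild-type plates, but the log2 fold change, mutant minus wild type, of -1.84 (standard error, SE, 0.42) had an edgeR adjusted p of 0.107.

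Complex I subunits were abundant. The median member stood at 473 CPM over the 7 plates, against 49.6 CPM for the median of the 2798 genes tested, and 35 of the 36 members lay above that median. CPM here are scaled by TMM, a correction for library composition, and include mitochondrially encoded genes in the total. CEL-seq2 reads 1 tag at the 3' end of each molecule, so levels of different genes were compared without dividing by length. The most abundant member was ndufa4b and the least abundant ndufv3, a small accessory subunit of the N module, with 23.2 ± 5.45 CPM in mutant plates and 25.7 ± 7.89 CPM in wild-type plates (SD, n = 4 and 3). The next most abundant members were NDUFS8, NDUFB9 and NDUFB7. Fold changes of members had a median SE of 0.17 on the log2 scale, against 0.40 over all genes tested.

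Summed over the 37 genes, complex I subunits took 1.53%, 1.78%, 1.94% and 1.71% of the transcripts outside spike-ins and mitochondrially encoded genes in mutant replicates 1 to 4, against 1.92%, 2.01% and 2.01% in wild-type replicates 1 to 3. The mean was 1.74% ± 0.170 in mutant plates and 1.98% ± 0.0521 in wild-type plates (SD, n = 4 and 3). Mutant replicate 3 lay above wild-type replicate 1, so the groups overlapped; no test was made of this sum. The difference, mutant minus wild type, was -0.238 percentage points, -0.265 within run 1 and -0.181 within run 2. The sum includes ndufa4b, whose mammalian counterpart is assigned to complex IV. Without ndufa4b the difference was -0.205 points, -0.246 within run 1 and -0.143 within run 2. Mutant replicate 1, with the lowest share, is the plate with the highest macrophage and leukocyte sum, most of it cd74a. Without that plate the difference was -0.169 points. The part of other cell types in the difference was not tested.

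The parts of the complex differed in how far the genotypes stood apart. The 7 core subunits took 0.315%, 0.361%, 0.412% and 0.373% of transcripts in mutant plates, against 0.330%, 0.369% and 0.371% in wild-type plates. Their means, 0.365% ± 0.0398 in mutant and 0.357% ± 0.0231 in wild-type plates (SD, n = 4 and 3), differed by less than the spread between plates. The 13 distal-arm genes, all accessory, took 0.592%, 0.684%, 0.745% and 0.640% in mutant plates, against 0.790%, 0.776% and 0.818% in wild-type plates. Here every mutant plate lay below every wild-type plate. The 8 proximal-arm genes behaved the same way, at 0.239%, 0.289%, 0.305% and 0.289% in mutant plates, against 0.333%, 0.323% and 0.347% in wild-type plates. They include ndufa9b, with 2 transcripts in all, but not ndufa13, ndufc1 or ndufc2. Means were 0.339% ± 0.0471 in mutant and 0.358% ± 0.0461 in wild-type plates for the N module, and 0.240% ± 0.0180 and 0.243% ± 0.0167 for the Q module (SD, n = 4 and 3), with overlapping plates in both.

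**Figure D1:**
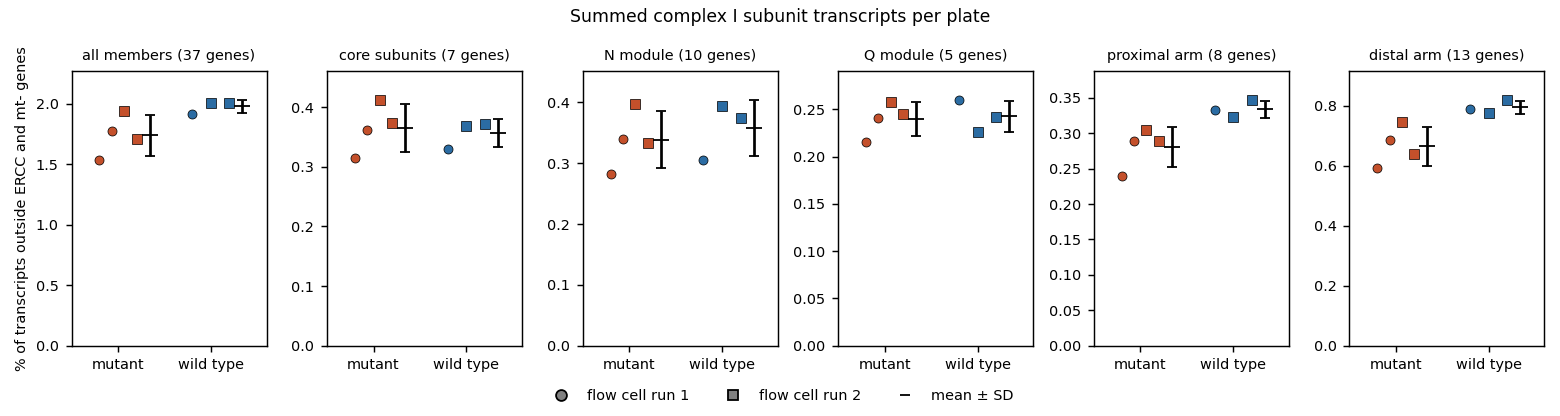
Summed transcripts of complex I subunit groups as a percentage of transcripts outside spike-ins and mitochondrially encoded genes, 1 point per plate, with mutant plates left of wild-type plates; circles are run 1, squares run 2, and the bar is the mean ± SD. In these kept wells the proximal and distal arms separate the genotypes without overlap, while the core subunits average 0.365% in mutant and 0.357% in wild-type plates. In wells at or above the cardiomyocyte marker limit, not drawn here, both arms overlap, and no test was made of these sums.

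The same sums were taken in kept wells split by their summed cardiomyocyte marker share. Wells with a share under a limit of 8.27% of transcripts numbered 28, 11, 9 and 17 in mutant plates and 7, 10 and 13 in wild-type plates. In them complex I subunits took 0.261% to 0.504% of transcripts in mutant plates and 0.342% to 1.21% in wild-type plates. In the 938 wells at or above the limit the share was 1.80%, 2.11%, 1.996% and 1.84% in mutant plates, against 2.11%, 2.08% and 2.15% in wild-type plates. The mean there was 1.94% ± 0.143 in mutant plates and 2.11% ± 0.0321 in wild-type plates (SD, n = 4 and 3), a difference of -0.173 points. Within run 1 the difference was -0.149 points, against -0.265 in all kept wells, and within run 2 -0.195, against -0.181. Mutant replicate 2, at 2.112%, lay above wild-type replicates 1 and 2, at 2.107% and 2.083%. The median member log2 fold change was -0.18 in marker wells, against -0.13 in all kept wells. In those wells mutant replicate 2, at 0.814%, lay above wild-type replicate 2, at 0.805%, for the distal arm, and at 0.335% against 0.334% for the proximal arm, so neither arm separated the genotypes any longer. The limit was set at 50% of the median share of all kept wells, and 40 wells lay within 20% of it. It rests on the summed list, whose largest part, MYL7, had a lower share in every mutant plate. How far MYL7 itself placed wells below the limit was not tested.

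Gene by gene, the test across all 2798 genes asked which subunits differ between genotypes once the run is taken into account. None of the 36 members passed the threshold of 0.05 on the adjusted p (edgeR quasi-likelihood test), beside a background of 0.5% of genes called, 7 higher and 7 lower in mutant plates. DESeq2 called 51 genes (1.82%) and limma 44 (1.57%), and neither called a member. At an unadjusted p under 0.05 edgeR gave 1 member higher in mutant plates, against 7.58% of all genes, and 3 members lower, 8.33% of the members against 5.18% of all genes. Fold changes were negative for 25 members and positive for 11, or 30.6% positive, against 51.9% of all genes tested. The median member stood at -0.13 on the log2 scale, against 0.03 for all genes. Every mutant plate lay below every wild-type plate for 6 members, 16.7% of those tested, beside 4.36% of all genes; they were NDUFB1, NDUFB10, NDUFA8, ndufab1b, NDUFA3 and ndufa5. No member showed the opposite separation, which 5.83% of all genes did. The 6 separated members became 13 when wild-type replicate 1 was left out and 11 when mutant replicate 3 was, beside backgrounds of 9.22% and 8.36%. Without any other single plate they numbered 6 or 7, 16.7% or 19.4% of members, beside backgrounds of 5.93% to 6.93%. All these backgrounds are over genes that were scarcer and measured less precisely. Their median was 49.6 CPM and their median SE 0.40, against 473 CPM and 0.17 for members. No share was taken over genes of like abundance, so an excess of members over the background cannot be read from these values.

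At the top of that range stood NDUFS1, the largest core subunit of the N module, which holds iron-sulfur clusters. It had 324.2, 424.9, 573.1 and 432.6 CPM in mutant plates, against 177.1, 464.9 and 396.1 CPM in wild-type plates. Wild-type replicate 1 was the lowest plate and the others overlapped. The log2 fold change was 0.52 (SE 0.22, edgeR adjusted p = 0.370), and 0.21 without wild-type replicate 1. NDUFA9, an accessory subunit at the junction of the arms, had 246.7, 265.1, 374.5 and 348.9 CPM in mutant plates, against 192.5, 339.5 and 286.1 CPM in wild-type plates. The groups overlapped, with a log2 fold change of 0.28 (SE 0.17, edgeR adjusted p = 0.533).

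NDUFS4 and NDUFS6, accessory subunits of the N module, came next. NDUFS4 had 143.3, 181.6, 219.0 and 245.6 CPM in mutant plates, against 111.7, 205.7 and 241.0 CPM in wild-type plates. NDUFS6 had 192.6, 221.5, 321.3 and 214.9 CPM in mutant plates, against 181.0, 253.6 and 207.8 CPM in wild-type plates. Both overlapped between genotypes, at log2 fold changes of 0.22 (SE 0.21) and 0.21 (SE 0.21), edgeR adjusted p 0.711 and 0.720. Single plates carried much of both values: NDUFS4 stood at 0.041 without wild-type replicate 1, and NDUFS6 at 0.039 without mutant replicate 3. The 3 plates of run 1 were the lowest for NDUFS4 in either genotype.

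At the bottom stood 4 accessory subunits of the membrane arm. NDUFB1, a small membrane subunit of the distal arm, had 559.1, 501.2, 767.5 and 555.5 CPM in mutant plates, against 912.7, 832.6 and 781.6 CPM in wild-type plates. All mutant plates were below all wild-type plates, with mutant replicate 3 closest to them. The log2 fold change was -0.48 (SE 0.17, unadjusted p 0.0157, edgeR adjusted p = 0.255), and the mean log2 difference was -0.78 in run 1 and -0.31 in run 2. Without wild-type replicate 1 the fold change was -0.30 (edgeR adjusted p = 0.749). NDUFB10, a cysteine-rich subunit on the intermembrane-space side of the distal arm, had 472.2, 486.7, 732.7 and 619.6 CPM in mutant plates, against 750.9, 736.8 and 783.1 CPM in wild-type plates. All mutant plates were again below the wild type, mutant replicate 3 the nearest, and the log2 fold change was -0.36 (SE 0.15, edgeR adjusted p = 0.370). With each plate left out in turn it ranged from -0.46 to -0.18, closest to 0 without wild-type replicate 1.

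In the proximal arm, NDUFA1, a small membrane subunit, had 465.1, 479.4, 765.5 and 661.5 CPM in mutant plates, against 627.7, 873.4 and 975.9 CPM in wild-type plates. It was its group's most abundant member, and mutant replicates 3 and 4 lay above wild-type replicate 1. The log2 fold change between genotypes was -0.39 (SE 0.14, edgeR adjusted p = 0.257), with mean log2 differences of -0.41 in run 1 and -0.38 in run 2. NDUFA3, another small membrane subunit, had 406.4, 450.4, 442.1 and 418.7 CPM in mutant plates, against 681.6, 462.1 and 489.5 CPM in wild-type plates. Its mutant plates lay close together and below the wild type, with wild-type replicate 1 far above the other wild-type plates. The log2 fold change was -0.35 (SE 0.16, edgeR adjusted p = 0.394), and -0.16 without wild-type replicate 1.

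**Figure D2:**
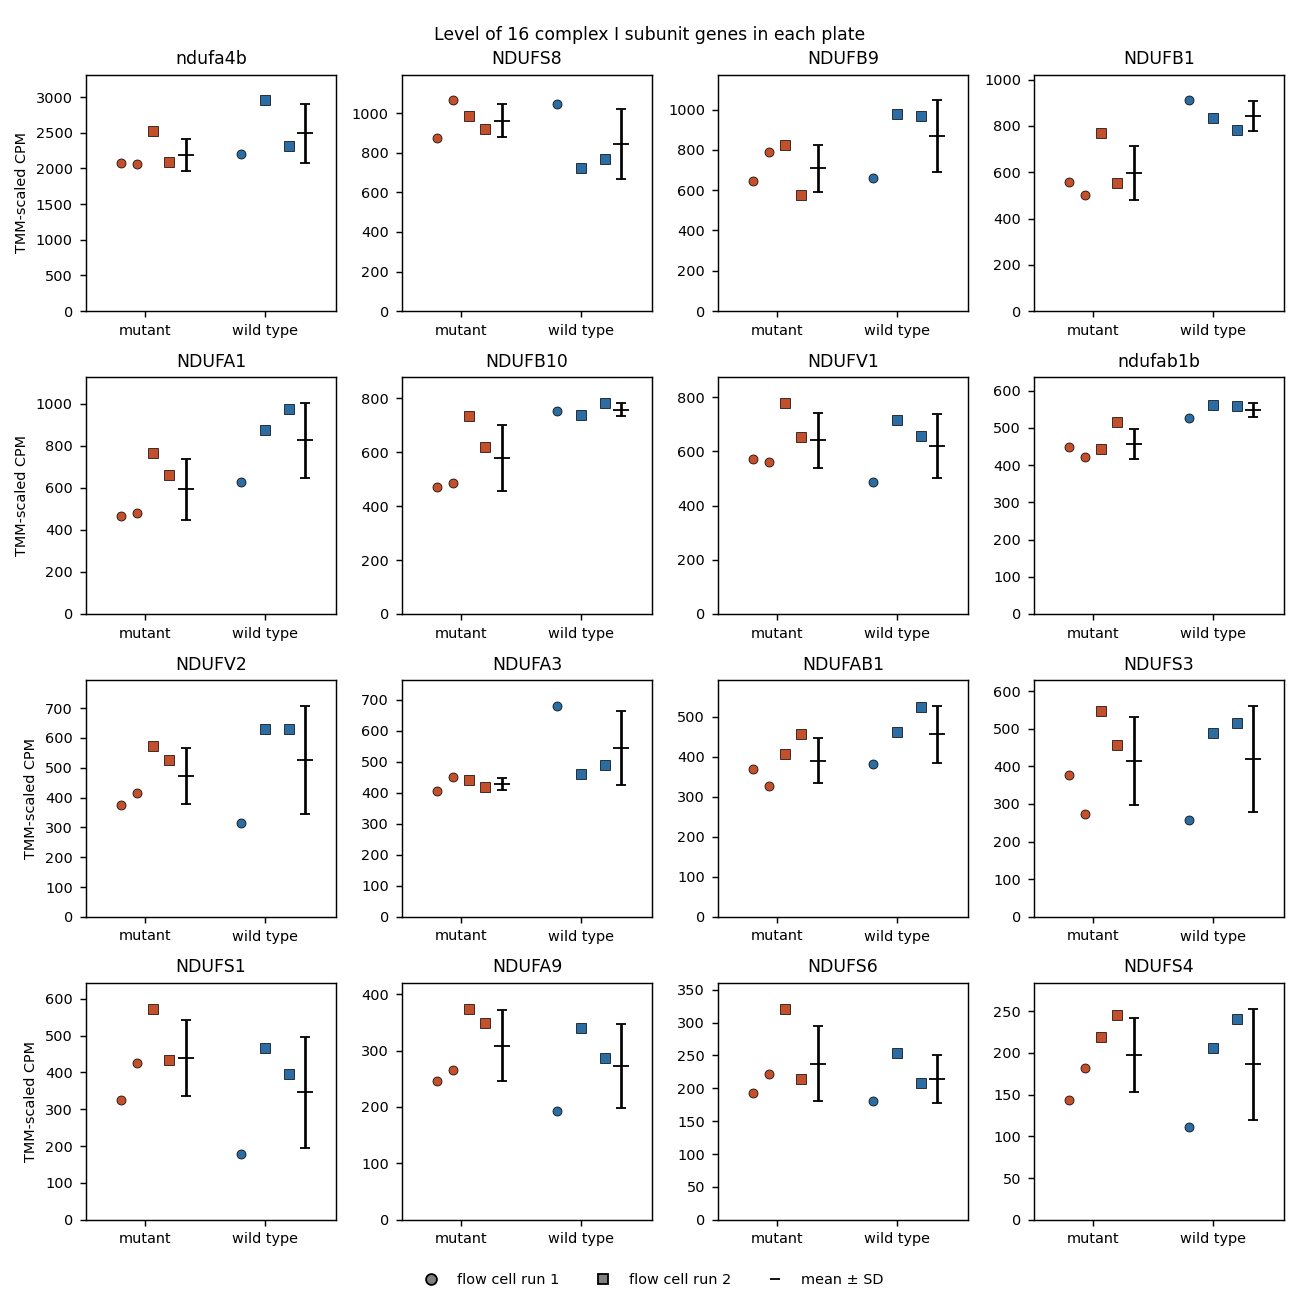
TMM-scaled CPM of 16 complex I subunit genes, 1 point per plate, mutant plates left of wild-type plates; circles are run 1, squares run 2, and the bar is the mean ± SD. NDUFB1, NDUFB10, NDUFA3 and ndufab1b have all mutant plates below all wild-type plates, while NDUFV2, NDUFS3, NDUFA1, NDUFV1, NDUFA9, NDUFS4 and NDUFAB1 have all run 2 plates above all run 1 plates. Of all genes tested, 4.36% and 9.44% separated in these ways. The genes drawn were picked partly by their genotype change or run call, so they do not stand for all members.

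The most abundant members of the other groups did not pass the genotype test. NDUFV1, the core subunit that binds NADH and its flavin cofactor, had 573.2, 559.3, 779.8 and 653.1 CPM in mutant plates, against 489.1, 717.0 and 656.6 CPM in wild-type plates. NDUFS8, an iron-sulfur core subunit of the Q module, had 876.2, 1068, 988.6 and 918.3 CPM in mutant plates, against 1047, 722.7 and 768.1 CPM in wild-type plates. NDUFB9, an accessory subunit of the distal arm, had 646.0, 788.1, 822.8 and 575.0 CPM in mutant plates, against 662.4, 977.7 and 966.9 CPM in wild-type plates. All 3 overlapped between genotypes, with log2 fold changes of 0.12 (SE 0.14), 0.17 (SE 0.15) and -0.25 (SE 0.18) and edgeR adjusted p of 0.784, 0.676 and 0.613. NDUFS8 and NDUFB9 changed sign in run 1 alone, at -0.13 and 0.09. The value closest to 0 with 1 plate left out was 0.049 for NDUFV1 (wild-type replicate 1), 0.082 for NDUFS8 (wild-type replicate 2) and -0.10 for NDUFB9 (mutant replicate 4).

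A gene outside the complex shares the naming scheme. The mammalian counterpart of ndufa4b, NDUFA4, is now assigned to cytochrome c oxidase (complex IV). It had 2081, 2063, 2528 and 2088 CPM in mutant plates, against 2195, 2960 and 2312 CPM in wild-type plates. The groups overlapped through mutant replicate 3, and the log2 fold change was -0.15 (SE 0.14, edgeR adjusted p = 0.689). It was -0.060 without wild-type replicate 2 and -0.019 in wells from 2000 transcripts.

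The acyl carrier protein of mitochondria, which also sits in complex I, had 2 measured copies. ndufab1b had 448.7, 421.3, 442.1 and 516.4 CPM in mutant plates, against 527.6, 560.7 and 558.7 CPM in wild-type plates. NDUFAB1 had 368.8, 326.9, 407.3 and 457.8 CPM in mutant plates, against 381.2, 462.1 and 524.1 CPM in wild-type plates. The first separated the genotypes and the other did not, but their log2 fold changes were close, -0.25 (SE 0.14) and -0.17 (SE 0.15), with edgeR adjusted p of 0.514 and 0.696. In thinned wells ndufab1b stood at -0.016. How the counting treated reads shared by near-identical copies is not known from the sources used here.

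Set out by subunit group, the core subunits and the rest had median fold changes of opposite sign, without a call in either. Of the 7 core subunits 5 had a positive fold change, beside 51.9% of all genes tested, with a median of 0.12. Of the other 29 members, which include ndufa4b, 6 were positive and the median was -0.20. The positive core value closest to 0 was that of NDUFS7, at 0.013 (SE 0.19). Across 20 alternative settings the core median ran from 0.0040 to 0.19 and that of the others from -0.31 to -0.15. The number of positive core subunits ran from 4 to 6. The distal arm had 1 positive member of 13 and a median of -0.22, and the proximal arm 3 of 7 and -0.21. Medians were -0.05 for the 10 genes of the N module and 0.01 for the 5 of the Q module, and neither kept its sign across the 20 settings. The N module median ran from -0.16 to 0.17, with 5 settings above 0, and the Q module median from -0.26 to 0.12, with 14 below 0. These are descriptions of a chosen list, and no test was made of the split.

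**Figure D3:**
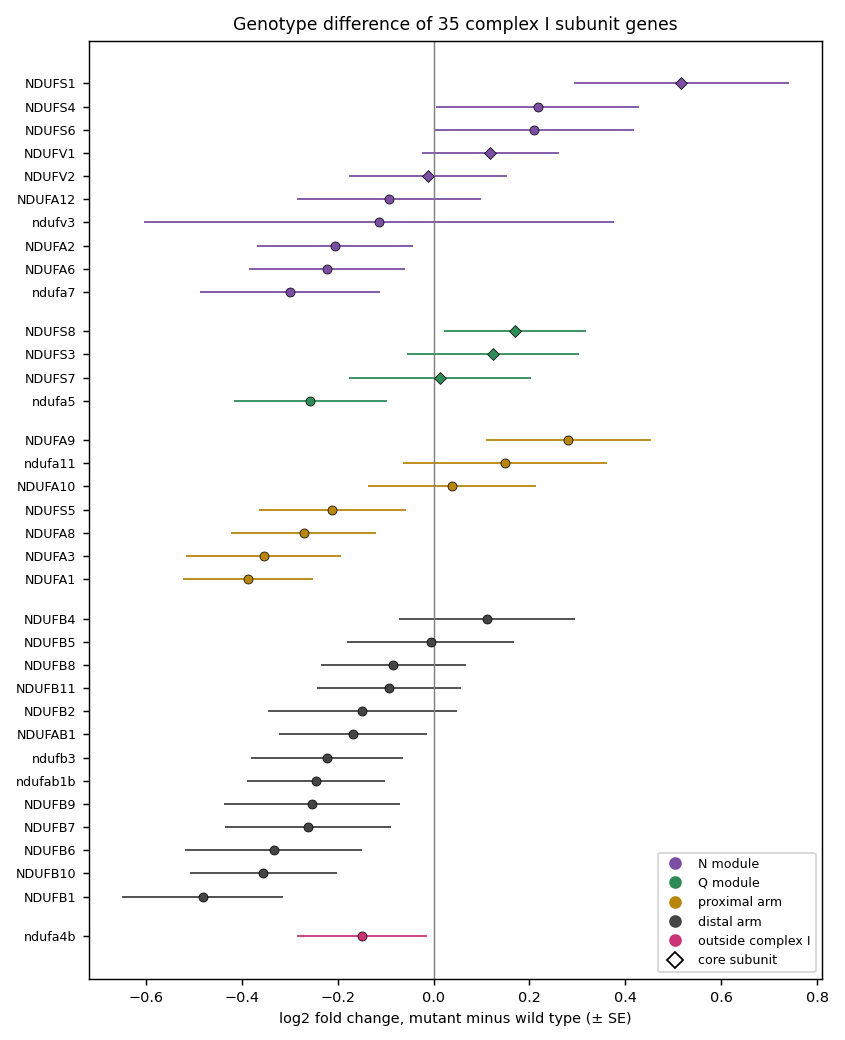
Log2 fold change, mutant minus wild type, of 35 of the 36 members tested, with bars of ± 1 SE, ordered within subunit groups; diamonds are core subunits and the line marks 0. In the distal arm 12 of 13 members lie left of 0, while 5 of the 6 core subunits drawn lie right of it.

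More members passed the test of run than that of genotype. NDUFA1, NDUFS3 and NDUFV2 were higher in run 2 (edgeR adjusted p under 0.05), 8.33% of members beside a background of 1.86% of genes called higher in run 2 and 4.65% called in either direction. No member was called lower, against 2.79% of all genes. At an unadjusted p under 0.05 edgeR gave 9 members higher in run 2, against 9.86% of all genes, and 1 lower, against 11.6%. Fold changes were positive for 29 of 36 members, against 50.2% of all genes, and every run 2 plate lay above every run 1 plate for 9 members, or 25%, beside 9.44% of all genes. No member showed the opposite, as 10% of all genes did. These backgrounds too are over genes scarcer at the median than members, and none was matched for abundance. The lean of members toward run 2 depended on the wells and their weight. The median member, run 2 minus run 1, stood at 0.20 on the log2 scale. It was 0.06 in wells at or above the cardiomyocyte marker limit, -0.02 in wells thinned to equal depth and 0.04 by limma with wells of equal weight. In the other settings with a run term it ran from 0.12 to 0.39.

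NDUFS3, a core subunit of the Q module, had 546.5, 457.8, 487.4 and 515.1 CPM in run 2 (mutant replicates 3 and 4, wild-type replicates 2 and 3), against 375.9, 272.4 and 258.0 CPM in run 1 (mutant replicates 1 and 2, wild-type replicate 1). The runs did not overlap, and it rose in run 2 by 0.75 on the log2 scale (SE 0.18, edgeR adjusted p = 0.0442). NDUFV2, the iron-sulfur core subunit next to NDUFV1, had 573.1, 527.5, 631.1 and 631.0 CPM in run 2, against 373.5, 414.0 and 315.8 CPM in run 1. It rose by 0.68 (SE 0.17, edgeR adjusted p = 0.0450). NDUFA1 had 765.5, 661.5, 873.4 and 975.9 CPM in run 2, against 465.1, 479.4 and 627.7 CPM in run 1, again without overlap, and rose by 0.58 (SE 0.14, edgeR adjusted p = 0.0421). Between genotypes, NDUFS3 stood at 413.1 ± 116.9 CPM in mutant and 420.2 ± 141.1 CPM in wild-type plates, and NDUFV2 at 472.0 ± 93.7 and 526.0 ± 182 CPM (SD, n = 4 and 3).

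These 3 calls depended on the settings. DESeq2 called the same 3 members, beside 6.86% of all genes, but none was called in wells at or above the cardiomyocyte marker limit, in wells thinned to 1000 UMIs (barcodes that mark single molecules), in wells from 2000 transcripts, or by limma with wells of equal weight. Leaving out any wild-type plate, or mutant replicate 2 or 3, also left 0 calls, and leaving out mutant replicate 1 left 1. In marker wells the run 2 minus run 1 values were 0.55 for NDUFS3, 0.48 for NDUFV2 and 0.46 for NDUFA1. Mitochondrially encoded transcripts moved the other way with run, at 4.93% and 4.08% of the total in mutant and 3.80% and 3.91% in wild-type plates of run 2, against 7.15% and 7.33% in mutant and 5.55% in wild-type plates of run 1. With these transcripts left out, the run 2 minus run 1 values were 0.74 for NDUFS3, 0.67 for NDUFV2 and 0.57 for NDUFA1, and the call of NDUFV2 was lost (edgeR adjusted p 0.0479, 0.0507 and 0.0475).

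**Figure D4:**
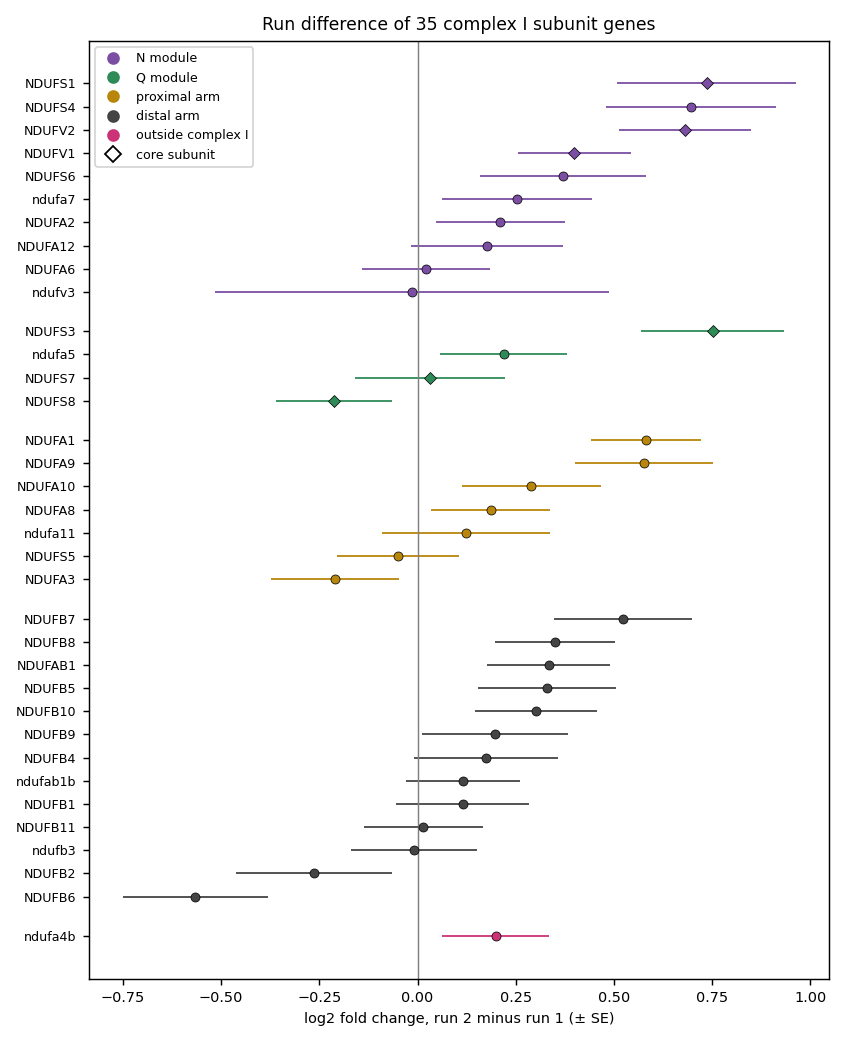
Log2 fold change, run 2 minus run 1, of 35 of the 36 members tested, with bars of ± 1 SE, ordered within subunit groups; diamonds are core subunits and the line marks 0. Most members lie right of 0, with NDUFS3 farthest at 0.75, and NDUFB6 lies farthest left at -0.57.

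Whether the genotype difference itself changed between runs was tested by an interaction term. No gene and no member passed (edgeR adjusted p under 0.05; background 0% called), and at an unadjusted p under 0.05 it gave 0 members and 196 genes, 7.01% of those tested (2.04% more positive and 4.97% more negative in run 2). The term was positive for 21 of 36 members, against 45.6% of all genes. DESeq2 called 1 gene, no member, and limma called 0. With 1 wild-type plate in run 1 this term is measured loosely, and the smallest adjusted p of a member was 0.686.

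Single wells showed how complex I transcripts spread within a plate. Each of 1026 kept wells was thinned to 1000 observed UMIs, and 7 wells were too shallow. The median well held 19 complex I UMIs, those of ndufa4b included, with a range of 0 to 41 and 14 wells at 0. Plate medians were 16, 19, 20 and 18 UMIs in mutant plates and 21, 20.5 and 20 in wild-type plates. Mutant replicate 1 was lowest, and mutant replicate 3 reached the lowest wild-type plate. The variance over the mean ran from 2.27 to 4.15 in mutant plates and from 3.35 to 3.79 in wild-type plates, above the value of 1 that counting alone gives. In wells at or above the marker limit it was 1.73 to 2.25 in mutant plates and 2.48 to 2.80 in wild-type plates. In those wells plate medians were 18 to 20 UMIs in mutant plates and 21 to 22 in wild-type plates, and below the limit 1 to 4 and 2 to 3 UMIs. Across wells, within a plate, complex I UMIs had a Spearman rho of 0.24 to 0.58 with the marker share and of -0.10 to -0.58 with the mitochondrial share in mutant plates, against 0.26 to 0.35 and -0.13 to -0.25 in wild-type plates. These are descriptions over wells of 1 library. The marker share and the complex I UMIs are both taken from transcripts outside spike-ins and mitochondrially encoded genes. The mitochondrial share is taken from all transcripts outside spike-ins.

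**Figure D5:**
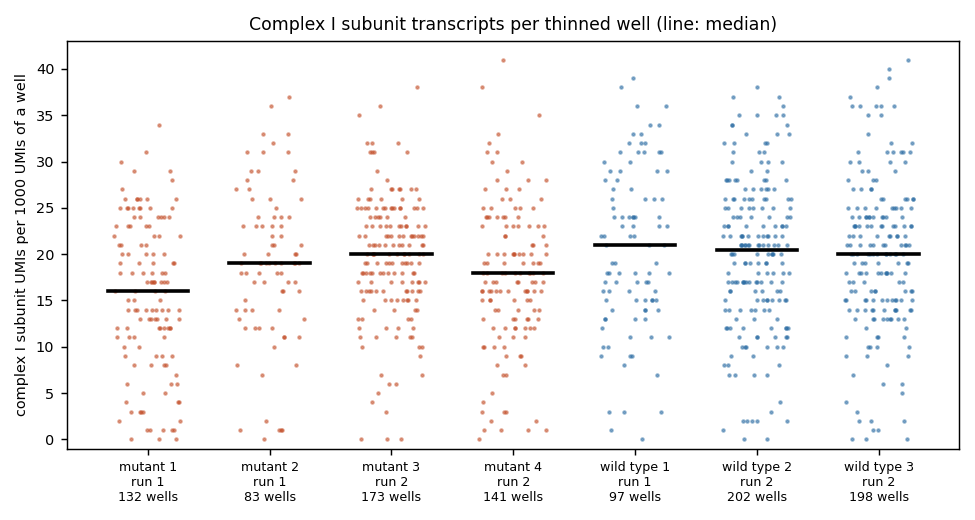
Complex I subunit UMIs, those of ndufa4b included, in each kept well after thinning to 1000 UMIs, 1 point per well, mutant plates left of wild-type plates, with a line at the plate's median. Wells spread from 0 to 41 UMIs, and the medians run from 16 to 20 in mutant and from 20 to 21 in wild-type plates.

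Single members were seen in a share of thinned wells that followed their abundance. ndufa4b had a UMI in 79.3% ± 4.35 of wells in mutant plates and 85.05% ± 3.26 in wild-type plates, and ndufv3 in 1.76% ± 0.766 and 2.70% ± 1.32 (SD, n = 4 and 3). NDUFB1 was seen in 39.8% ± 6.65 of mutant and 49.9% ± 6.84 of wild-type wells, and NDUFS1 in 29.1% ± 6.84 and 20.3% ± 5.11. The median well showed 10 to 13 members in mutant plates and 12 in every wild-type plate.

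Other genes of the pathway were read from the same fit. The 7 mitochondrially encoded complex I genes, the core of the membrane arm, all had a positive genotype fold change, with a median of 0.41 and none called; in marker wells, and in wells from 2000 transcripts, 6 of the 7 were positive. MT-ND5, the pump subunit at the tip of the arm, had 942.0, 780.9, 914.9 and 1066 CPM in mutant plates, against 596.9, 610.0 and 628.0 CPM in wild-type plates. Every mutant plate lay above the wild type, as for 5.83% of all genes, at a log2 fold change of 0.62 (SE 0.14, edgeR adjusted p = 0.107). MT-ND1 and MT-ND6 separated in the same direction, and the remaining mitochondrially encoded complex I genes overlapped. The closest plates were 2225 against 2068 CPM for MT-ND1 and 38.9 against 37.7 CPM for MT-ND6 (edgeR adjusted p 0.207 and 0.304). As a share of all transcripts the 7 genes stood at 2.08%, 2.06%, 1.37% and 1.06% in mutant plates, against 1.61%, 1.06% and 1.13% in wild-type plates, so the summed share overlapped. In wells at or above the marker limit it was 0.851% ± 0.193 in mutant and 0.725% ± 0.227 in wild-type plates (SD, n = 4 and 3). By run, MT-ND2 and MT-ND3 fell in run 2, by 0.69 (SE 0.14, edgeR adjusted p = 0.0252) and by 1.35 (SE 0.12, edgeR adjusted p = 5e-04) on the log2 scale, while 29 of 36 nuclear-encoded members had positive values. The median of those 36 members was 0.20 in that fit but -0.02 in thinned wells.

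Of 18 assembly factors listed, 14 had a row and 6 were tested, with a median genotype fold change of -0.19 and none called. ACAD9, which helps build the membrane arm, had 42.3, 39.95, 34.8 and 22.3 CPM in mutant plates, against 11.6, 16.9 and 15.1 CPM in wild-type plates. ACAD9 was scarce, below the all-gene median of 49.6 CPM in every plate. Its plates did not overlap between genotypes, as for 5.83% of all genes in this direction, at 1.14 (SE 0.49, edgeR adjusted p = 0.370). Complex II, the other entry of electrons to ubiquinone, had 7 tested genes, 3 positive and none called, with a median of -0.04. SDHA, its flavoprotein, had 213.8, 247.0, 253.8 and 323.8 CPM in mutant plates, against 88.6, 239.5 and 161.1 CPM in wild-type plates, overlapping, at 0.80 (SE 0.25, edgeR adjusted p = 0.211). SDHAF4, an assembly factor for SDHA, had 30.5, 29.1, 32.7 and 41.9 CPM in mutant plates, against 69.3, 63.4 and 57.2 CPM in wild-type plates. These did not overlap, as for 4.36% of all genes in this direction, at -0.89 (SE 0.32, edgeR adjusted p = 0.276). Of 11 regulators of respiratory chain genes, 6 gene rows were tested, 3 positive and none called, with a median of 0.13. Among the negative rows was the coactivator PPARGC1A, with 51.7, 130.7, 38.9 and 39.1 CPM in mutant plates, against 111.7, 60.6 and 69.3 CPM in wild-type plates. Its groups overlapped, with the highest plate a mutant one, at -0.57 (SE 0.35, edgeR adjusted p = 0.539). The lowest row was under YY1, at -1.54 (SE 0.67, edgeR adjusted p = 0.370), while another YY1 row stood at 0.56 (SE 0.72).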

How the data were processed

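Adult zebrafish ventricular cells were profiled with CEL-seq2 and spike-in RNA, per the labels' protocols. The submitters' processing notes name BWA 0.6.2, and no source used here gives the genome build, annotation or counting. Each deposited value is an estimated count of transcripts, per gene and per well: 100% of the 857630 values above 0 match, within 0.0051, a whole UMI number corrected for 4096 barcodes, a 6-base UMI, although the labels give a shorter one. The largest observed number was 2927.

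The 7 tables were joined by gene identifier, with absent genes set to 0; 13087 of 16394 genes had a symbol, and 13 genes were recognised as mitochondrially encoded. Wells with at least 1000 transcripts outside spike-ins and those genes were kept, 22.1% to 45.6% of wells per mutant plate and 25.8% to 52.6% per wild-type plate. No doublet caller was run, since cells were sorted 1 per well. Estimates were summed per plate, rounded and then tested in edgeR 4.0.16 (R 4.3.3; TMM, filterByExpr by genotype, quasi-likelihood F test, run as covariate, Benjamini-Hochberg over 2798 genes). The SE is the fold change over the square root of F. Runs are the flow cells in the deposited names, and plates were numbered in order of deposit. Alternatives were RLE factors, totals without mitochondrially encoded genes, no filter, no run covariate, wells from 500 or 2000 transcripts, marker wells, thinned wells, observed UMIs, single runs, each plate left out, DESeq2 1.42.0 and limma 3.58.1. Counting precision is that of the plate totals.

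The test was checked on simulated counts. Its first acceptance rule, a minimum share of large changes called, was not met; it was replaced afterwards by a rule on the accuracy of the estimated fold changes and on false calls, which was met. In that check most 2-fold and nearly all 1.5-fold changes were not called, and a minority of 4-fold changes were missed too. The changed genes were drawn at random from all 2798 genes tested, with a median of 49.6 CPM, against 473 CPM for members. In the data the median SE was 0.40 over all genes and 0.17 over members, so the shares called do not describe members. The fit was left as it was.

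The members, subunit groups and other lists were chosen with earlier results of these data known. Values per plate are given for members called in any test, the 4 highest and 4 lowest genotype fold changes, the most abundant member of each group and paralogs. Genes of the other lists, and the 6 members that separated the genotypes, were named after their values were seen. No sequences were used here. For 1 member, which counts in the totals, single values are not reported here.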

Additional observations from a re-analysis of the deposited data

Results flagged for a closer look

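Among 23 sets of 4 mutant plates examined, one value stood apart from the other 3 plates. ndufa4b had 2528 CPM in mutant replicate 3, while the other mutant plates had 2063 to 2088 CPM. Chance marks about 1 in 20 such sets.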

How the results depend on the processing

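No paired analysis was made, because the labels match no mutant plate to a wild-type plate. They share only flow cell runs, and the run was a covariate. Of 502 values under alternative settings, 424 kept their direction and side of the threshold, or stayed near the reported value. Near was a wide limit, the pooled SD between plates: 0.136 points for the summed share and 0.131 for the median member. With that median at -0.13, a value of -0.044 in wells from 2000 transcripts still counted as near. Counts of genes were judged by their ratio to the reported count. Members called between genotypes stayed at 0 in all 20 settings run. Genes called between genotypes (14) became 83 with no filter on low counts, 57 in marker wells, 54 in thinned wells, 9 without the run covariate, 8 in run 1 alone, 29 in run 2 alone, 51 with DESeq2, 44 with limma, and 7 to 20 without each plate in turn. Genes called between runs (130) became 315 with no filter, 57 in marker wells, 35 in thinned wells, 45 with limma, and 18 to 124 without each plate. The 3 members called between runs became 5 with no filter, 0 in wells from 2000 transcripts, 0 in marker wells, 0 in thinned wells, 0 with limma, and 0 to 3 without each plate. The interaction (0 genes) gave 28 with no filter, 1 with DESeq2 and 0 to 3 without each plate; it could not be fitted without wild-type replicate 1. Members with every mutant plate below the wild type (6) numbered 6 to 13 without each plate, beside 5.93% to 9.22% of all genes. This alternative was chosen after seeing the data. The genotype value of NDUFV2 (-0.01) turned to 0.12 in wells from 2000 transcripts and 0.30 in run 1 alone, and ran from -0.21 to 0.043 without each plate. That of NDUFS3 (0.12) turned to -0.030 without the run covariate and -0.022 in run 2 alone, and ran from -0.0089 to 0.19 without each plate. In run 1 alone NDUFS8 was -0.13 and NDUFB9 was 0.090. With no filter the median of all genes was -0.14, against 0.03 with it, and that of members -0.24. The cause of these shifts was not tested. The number of plates and of wells per plate limits small changes of scarce genes such as ndufv3.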
